A study of Mus musculus with 6 samples.

Results

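The 50 genes described here encode subunits of the mitochondrial respiratory chain that are carried in the nucleus: 23 of complex I, 4 of complex II, 8 of complex III, cytochrome c (Cycs), 11 of complex IV and 3 of complex V. They are a list of gene names, and all 50 symbols were found among 54532 gene identifiers. One symbol, Atp5o, names a pair of identifiers, of which one had no counts in any library and was left out. Ndufa4, named as a complex I gene, was counted with complex IV, where its protein is now placed.

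RNA was sequenced from epididymal white adipose tissue, the fat depot beside the epididymis, of mice fed a high-fat diet for 16 weeks. The knockout libraries (n = 3) came from PD-1fl/fl Lyz2-Cre mice, in which the gene of the immune checkpoint receptor PD-1 (Pdcd1) is deleted where the Lyz2 promoter drives Cre, that is in macrophages and other myeloid cells. The controls (n = 3) were PD-1fl/fl littermates without Cre, so every library carried the floxed alleles. The tissue as a whole was sequenced, so adipocytes with an intact Pdcd1 gene contributed to every library. Libraries are numbered within each group by their place in the deposited records. Whether each library came from its own animal is not said in the labels, and p-values therefore describe the spread among libraries, part of which may be technical.

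Library totals were 20108185 to 27225533 counts. Control 2 had a liver profile: albumin (Alb) took 8.27% of its counts, and the adipocyte genes Adipoq and Plin1 stood at 11.2 and 13.3 CPM there (counts per library size, scaled by TMM factors), against 817 to 3649 CPM and 891 to 1583 CPM in the other 5 libraries. Alb took 0.436% of the counts of control 3 and at most 0.0817% in the other 4. Every comparison is therefore given with all 6 libraries and again without control 2. Pdcd1 had 19, 19 and 5 counts in the knockouts and 13, 0 and 0 in the controls, too few to check the labels in a tissue where other cells keep the gene, and the groups are used as labelled.

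The respiratory chain passes electrons from NADH (through complex I) and succinate (through complex II) to ubiquinone, then through complex III and cytochrome c to complex IV, which reduces oxygen, and the proton gradient so formed drives ATP synthesis by complex V. Complexes I, III, IV and V join subunits encoded in the nucleus with subunits encoded by mitochondrial DNA, while complex II is encoded in the nucleus alone. In fat, this chain supplies ATP for lipid handling and, in cells with uncoupling protein, heat.

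Nuclear genes of the chain are known for promoters with sites for the nuclear respiratory factors NRF1 and NRF2 (also GABPA, an ETS factor) and for YY1, so the sequence that the subunit genes share was looked at first. RefSeq promoter windows on GRCm38.p6, from 250 bases before to 50 bases after the transcript start, were found for 39 of the 50 genes. The NRF1 core GCGCATGC, searched on both strands, was present in 6 of 39 windows (15.38%), against 758 of 27025 windows of all genes (2.805%). The ETS motif CCGGAAG was present in 9 windows (23.08%, against 9.121% of all), and the YY1 motif AAGATGGC in 5 (12.82%, against 2.879%). The 5 windows with the YY1 motif were all among the 20 of complex I (Ndufa9, Ndufb8, Ndufs4, Ndufs6 and Ndufs7). At least 1 of these motifs was present in 18 of the 39 windows (46.15%, against 13.75% of all windows). A match describes letters and is not a measured binding site.

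The NRF1 core was spread over complexes: 2 windows of complex I, 1 each of complexes II, III and IV, and that of Cycs, with none in the 2 windows of complex V. One window with the core is printed for each of these complexes, 5′ to 3′ in the direction of the gene. The window of Cox8a follows, with 2 matches to the ETS motif. Cox8a had the highest median FPKM (level per exon length) of the complex IV genes, as deposited. Capitals mark the matches of these motifs on either strand. The windows lie at chr2:36049289-36049588 (Ndufa8, minus strand), chr4:140961021-140961320 (Sdhb, plus strand), chr9:108936398-108936697 (Uqcrc1, plus strand), chr6:50566520-50566819 (Cycs, minus strand), chr5:115348909-115349208 (Cox6a1, minus strand) and chr19:7217567-7217866 (Cox8a, minus strand).
Ndufa8: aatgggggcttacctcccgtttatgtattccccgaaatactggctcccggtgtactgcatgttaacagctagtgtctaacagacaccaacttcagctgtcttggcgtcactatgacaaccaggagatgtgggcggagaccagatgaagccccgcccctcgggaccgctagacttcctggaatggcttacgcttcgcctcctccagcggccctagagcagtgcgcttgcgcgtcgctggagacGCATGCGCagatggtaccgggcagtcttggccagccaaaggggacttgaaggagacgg
Sdhb: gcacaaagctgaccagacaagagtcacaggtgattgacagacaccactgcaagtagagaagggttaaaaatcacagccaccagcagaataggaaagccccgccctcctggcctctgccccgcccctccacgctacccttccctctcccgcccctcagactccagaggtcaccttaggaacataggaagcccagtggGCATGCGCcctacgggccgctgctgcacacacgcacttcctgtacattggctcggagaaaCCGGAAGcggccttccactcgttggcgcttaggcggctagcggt
Uqcrc1: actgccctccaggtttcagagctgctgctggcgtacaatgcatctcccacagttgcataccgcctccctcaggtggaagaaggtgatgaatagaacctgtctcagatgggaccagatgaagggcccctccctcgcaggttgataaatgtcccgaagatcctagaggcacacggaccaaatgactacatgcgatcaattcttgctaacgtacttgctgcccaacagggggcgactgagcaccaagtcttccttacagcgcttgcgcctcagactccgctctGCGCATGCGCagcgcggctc
Cycs: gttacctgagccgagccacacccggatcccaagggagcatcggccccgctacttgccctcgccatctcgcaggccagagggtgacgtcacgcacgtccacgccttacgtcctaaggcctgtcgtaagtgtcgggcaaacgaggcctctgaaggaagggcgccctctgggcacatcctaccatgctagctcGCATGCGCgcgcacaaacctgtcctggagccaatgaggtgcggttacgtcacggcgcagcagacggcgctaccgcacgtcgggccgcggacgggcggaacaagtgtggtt
Cox6a1: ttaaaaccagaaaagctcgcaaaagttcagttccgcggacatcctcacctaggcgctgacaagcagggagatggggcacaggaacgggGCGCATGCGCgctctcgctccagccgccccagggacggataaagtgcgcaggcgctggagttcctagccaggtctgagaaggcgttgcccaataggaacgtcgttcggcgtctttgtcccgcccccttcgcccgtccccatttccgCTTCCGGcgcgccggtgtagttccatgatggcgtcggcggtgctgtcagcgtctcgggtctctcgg
Cox8a: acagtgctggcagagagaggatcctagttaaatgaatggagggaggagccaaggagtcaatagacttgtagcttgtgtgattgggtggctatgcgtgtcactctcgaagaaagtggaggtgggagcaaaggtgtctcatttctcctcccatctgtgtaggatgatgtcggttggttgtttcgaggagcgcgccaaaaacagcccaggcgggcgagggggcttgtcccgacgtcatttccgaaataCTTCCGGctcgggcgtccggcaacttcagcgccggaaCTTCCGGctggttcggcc
In Uqcrc1 and Cox6a1 the core overlaps its own reverse complement, so that 1 stretch gives a match on each strand. Sdhb and Cox6a1 hold an ETS match as well as the NRF1 core.

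The question of the comparison was whether the subunit genes differed between fat of knockouts and of littermates. All 50 genes had a fitted log2 fold change below 0 (knockout lower) with all 6 libraries and again without control 2, beside 52.0% and 52.9% of all genes tested. None of the 50 passed the threshold, an adjusted p of 0.05 in edgeR's quasi-likelihood test with Benjamini-Hochberg adjustment. No gene of the 15928 tested with all 6 libraries (0.0%) or of the 16729 tested without control 2 (0.0%) passed either, and 1 subunit gene, Uqcrc2, had an unadjusted p under 0.05 in each fit (4.27% and 3.5% of all genes tested were lower at that p). DESeq2 called 525 genes with all 6 libraries (3.37%) and 470 without control 2 (2.98%), and no subunit gene in either.

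Over the 50 genes the median log2 fold change was −0.89 with all 6 libraries and −0.57 without control 2, against −0.03 and −0.04 over all genes tested. Single genes ran from −1.48 (Uqcrb, a small subunit of complex III) to −0.26 (Ndufs7, a core subunit of complex I) with all 6 libraries. Without control 2 they ran from −1.15 (Cox8a) to −0.01 (Ndufa8, an accessory subunit of complex I). Standard errors were 0.37 to 0.84 and 0.26 to 0.87.

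**Figure D1:**
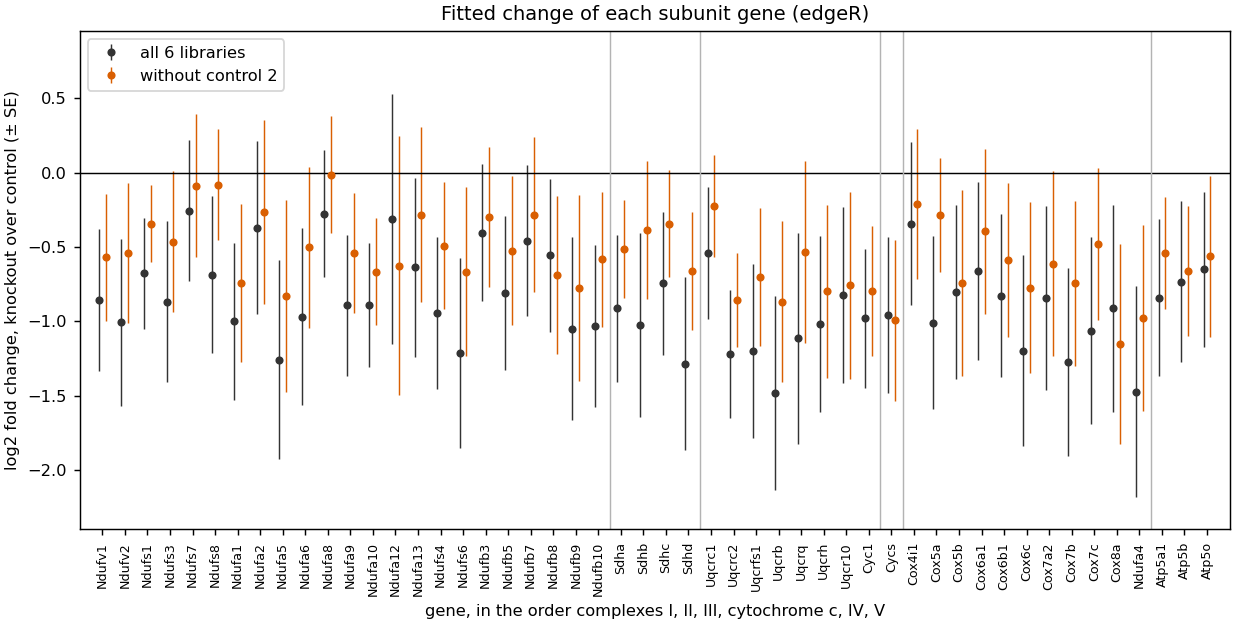
Fitted log2 fold change (y axis, knockout over control) of each of the 50 subunit genes (x axis, by complex), with bars of 1 standard error, from edgeR with all 6 libraries (black) and without control 2 (orange). All points lie below 0, and the points without control 2 have a median of −0.57 against −0.89 with it.

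Ranked by their medians with all 6 libraries, complex III stood lowest (−1.07), followed by complex II (−0.97), Cycs (−0.96), complex IV (−0.91), complex I (−0.86) and complex V (−0.73). Without control 2 the order was Cycs (−0.99), complex III (−0.78), complex IV (−0.61), complex V (−0.56), complex I (−0.53) and complex II (−0.45). Complex II thus moved from the second lowest place to the highest when control 2 was left out. Within complex I, the 6 core subunits had medians of −0.77 and −0.40, and the 17 accessory subunits −0.89 and −0.54. The differences between complexes were given no test.

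The levels library by library show what these medians are made of. The mean of log2(CPM + 1) over the 50 genes was 6.63, 6.41 and 7.48 in the knockouts and 7.96, 8.20 and 6.72 in the controls. Knockout 3 stood above control 3, and control 3 lay between knockout 2 and knockout 3, so the groups overlapped. The place of control 2 depended on its TMM factor of 0.559. With counts scaled to library totals alone, a setting added after the data were seen, the same mean was 7.36 in control 2, below knockout 3 (7.57) and control 1 (7.93). As a share of all counts the 50 genes took 0.834%, 0.740% and 1.26% in the knockouts and 1.66%, 1.11% and 0.855% in the controls, and the widest of their exact 95% intervals, in control 1, ran from 1.657% to 1.666%, for counting error only.

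**Figure D2:**
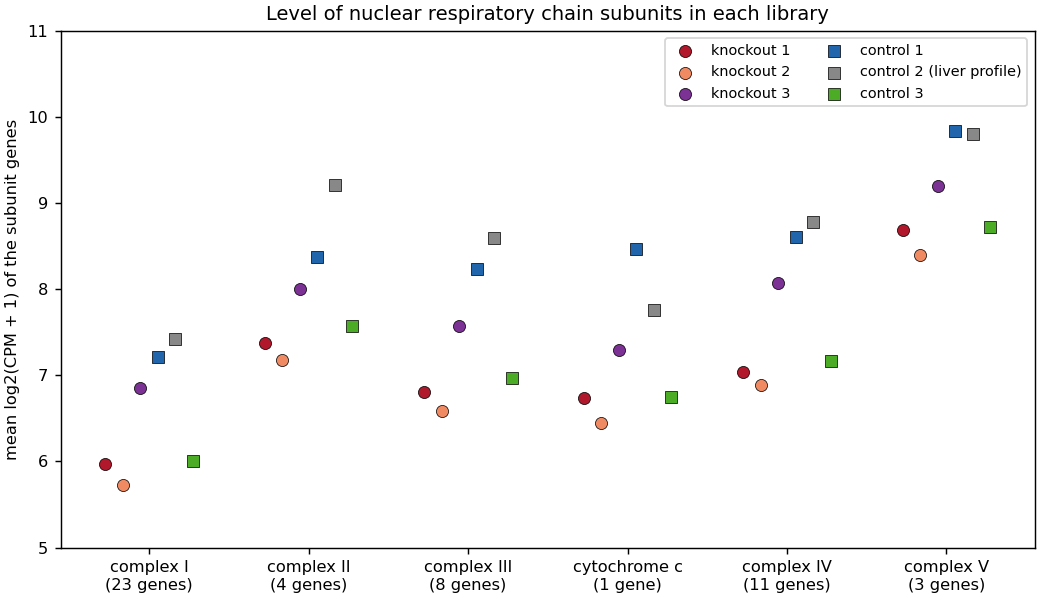
Mean log2(CPM + 1) of the subunit genes of each complex (x axis, with the number of genes) in each of the 6 libraries (knockouts as circles, controls as squares). In every complex control 3 lies below knockout 3 and control 1 above all knockouts, while control 2 lies above all knockouts with TMM scaling and, for complexes I, IV and V and Cycs, below knockout 3 when scaled to total counts.

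Single genes followed the same order of libraries. With TMM, control 2 was the highest of 6 libraries for 37 genes, control 1 for 12 and knockout 3 for 1, and knockout 2 was the lowest for 41. Scaled to total counts, control 2 was the highest for 5 genes, control 1 for 39 and knockout 3 for 6, and knockout 2 was the lowest for 31. Knockouts 1 and 2 were both below control 1 for 50 of 50 genes, while knockout 3 was above control 3 for 49 (all genes tested, 49.4%). These counts were 50 and 48 when scaled to total counts. By a looser measure, the mean log2 level of knockouts 1 and 2 was below control 1 for 50 of the 50 genes. This held for 7710 of all 15928 genes tested. Control 1 was above every knockout for 48 of the 50 genes (all genes tested, 32.8%). Among the 5 libraries without control 2, control 1 was the highest for 48 genes and knockout 3 the second highest for 47. Control 3 lay within the range of the knockouts for 43 genes, below all of them for 6 and above all of them for 1, Uqcrc2 (33, 15 and 2 genes when scaled to total counts).

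**Figure D3:**
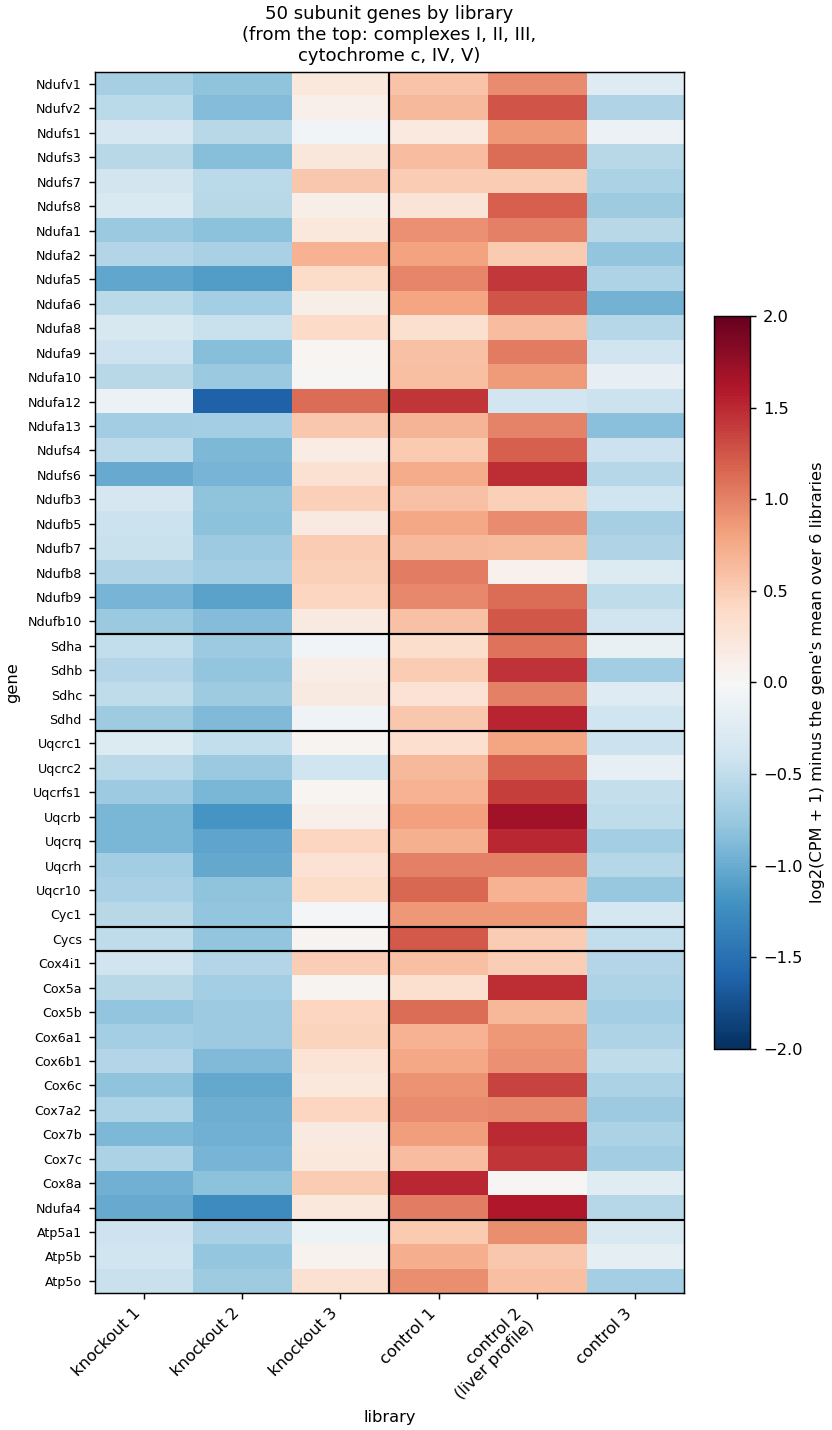
Level of each of the 50 subunit genes (rows, by complex) in each library (columns), as log2(CPM + 1) minus the gene's mean over the 6 libraries. Controls 1 and 2 and knockout 3 are on the high side for most genes with the TMM scaling shown, and knockouts 1 and 2 and control 3 on the low side.

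Complex I, the NADH dehydrogenase, has a core that carries the flavin and the iron-sulfur clusters and a shell of accessory subunits. Of its 23 genes, 0 passed the test in either fit. Ndufa10, an accessory subunit on the matrix side, had the smallest p of the complex, with 103, 89.9 and 153 CPM in the knockouts and 232, 274 and 135 in the controls. Control 3 lay inside the range of the knockouts, so the groups overlapped. The log2 fold change of Ndufa10 was −0.89 ± 0.42 (SE, edgeR adjusted p = 0.56) and, without control 2, −0.67 ± 0.36 (adjusted p = 0.62). Ndufs6, an accessory subunit that binds zinc, had 21.9, 23.2 and 56.0 CPM in the knockouts and 76.6, 128 and 30.1 in the controls (−1.21 ± 0.64, and −0.67 ± 0.57 without control 2). Ndufa1, a small membrane subunit, had 25.3, 24.0 and 49.9 CPM against 81.6, 87.9 and 28.9 (−1.0 ± 0.53 and −0.74 ± 0.53). In both genes control 3 lay between knockouts 1 and 2 on one side and knockout 3 on the other. Ndufa2, the complex I gene with the highest level per length, had 81.3, 78.5 and 199 CPM in the knockouts and 215, 177 and 70.9 in the controls, with control 3 the lowest of 6. Its log2 fold change was −0.37 ± 0.58, and −0.27 ± 0.62 without control 2. Ndufa12 was the most variable subunit gene between libraries, from 9.51 CPM in knockout 2 to 86.2 CPM in control 1.

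Complex II, succinate dehydrogenase, is shared with the citric acid cycle. Sdha, which carries its flavin, had 312, 264 and 423 CPM in the knockouts and 559, 929 and 395 in the controls. Sdhd, one of its membrane anchors, had 121, 108 and 189 CPM in the knockouts and 289, 576 and 151 in the controls. In both genes control 3 lay below knockout 3, and control 2 was the highest library with TMM; scaled to total counts it stood above control 1 for Sdhd (320 against 283 CPM) and below it for Sdha (517 against 548 CPM). The log2 fold change of Sdhd was −1.28 ± 0.58 (edgeR adjusted p = 0.56) with all 6 libraries and −0.66 ± 0.40 (adjusted p = 0.65) without control 2. That of Sdha was −0.91 ± 0.50 and −0.51 ± 0.33. All 4 genes of complex II were higher in control 2 than in control 1, by a median of 0.83 in log2(CPM + 1) with TMM. Scaled to total counts, 2 of the 4 were higher and the median was 0.01. The same difference with TMM was 0.50 for complex III, 0.31 for complex I, 0.17 for complex IV, −0.18 for complex V and −0.72 for Cycs. Scaled to total counts it was −0.32, −0.50, −0.64, −1.002 and −1.53, in the same order of complexes. Complex II stood highest and Cycs lowest. The change of scaling shifts all genes of a library by nearly the same amount, so it could not test this order.

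Complex III, the cytochrome bc1 complex, held the gene with the smallest p. Uqcrc2, a core protein of the complex (chromosome 7, 120635176 to 120659524, GRCm38), had 104, 90.7 and 115 CPM in the knockouts and 239, 348 and 136 in the controls. Every knockout lay below every control, and control 3 was the nearest to the knockouts. The log2 fold change was −1.22 ± 0.43 (unadjusted p = 0.0275, adjusted p = 0.56 in edgeR) and, without control 2, −0.86 ± 0.32 (unadjusted p = 0.0348, adjusted p = 0.54 in edgeR). Of the 50 genes, 1 (Uqcrc2) had every knockout below every control, a share under that of all genes tested (5.61% with all 6 libraries and 12.3% without control 2). Uqcrb had 48.6, 40.2 and 99.2 CPM in the knockouts and 164, 297 and 64.4 in the controls (−1.48 ± 0.65 and −0.87 ± 0.54). Cyc1, the cytochrome c1 that hands electrons to cytochrome c, had 127, 108 and 184 CPM against 341, 342 and 146 (−0.98 ± 0.47 and −0.80 ± 0.44). Uqcr10, a small subunit, had 71.1, 64.3 and 146 CPM against 250, 182 and 66.4 (−0.82 ± 0.59 and −0.76 ± 0.63). In each of Uqcrb, Cyc1 and Uqcr10, control 3 was below knockout 3 and control 1 above every knockout; control 2 was above every knockout with TMM, and below knockout 3 for Cyc1 and Uqcr10 when scaled to total counts.

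Cycs, the mobile carrier between complexes III and IV, had 106, 86.6 and 156 CPM in the knockouts and 355, 215 and 107 in the controls. It was highest in control 1, and control 3 stood within 1 CPM of knockout 1. The log2 fold change of Cycs hardly depended on control 2, at −0.96 ± 0.52 with it and −0.99 ± 0.54 without (edgeR adjusted p = 0.61 and 0.62).

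In complex IV, cytochrome c oxidase, Ndufa4 had the smallest p with all 6 libraries. This subunit had 140, 118 and 326 CPM in the knockouts and 573, 860 and 191 in the controls, and control 3 lay between knockouts 1 and 3. Its log2 fold change was −1.47 ± 0.71 (edgeR adjusted p = 0.57) and −0.98 ± 0.63 (adjusted p = 0.67) without control 2. Cox7b, a small membrane subunit, had 56.7, 54.4 and 121 CPM in the knockouts and 191, 302 and 68.1 in the controls (−1.27 ± 0.63 and −0.75 ± 0.55). Cox8a, one of the smallest subunits, had 189, 210 and 528 CPM in the knockouts and 1056, 377 and 313 in the controls. For Cox8a control 1 stood above all other libraries, and control 2 lay below knockout 3. Its log2 fold change was −0.91 ± 0.70 with all 6 libraries and −1.15 ± 0.67 without control 2, so it differed more once control 2 was left out. Between controls 2 and 1 the genes of complex IV differed in both directions with TMM, from −1.48 in log2(CPM + 1) for Cox8a to 1.16 for Cox5a, which forms part of the matrix side. Scaled to total counts, Cox5a was the 1 gene of the complex higher in control 2.

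Complex V, the ATP synthase, was represented by both major subunits of its catalytic head and one subunit of its stalk. Atp5b, the catalytic beta subunit, had 1062, 818 and 1472 CPM in the knockouts and 2314, 2037 and 1225 in the controls. Atp5a1, the alpha subunit, had 732, 623 and 904 CPM in the knockouts and 1402, 1861 and 792 in the controls. In both genes control 3 lay between knockouts 1 and 3. The log2 fold changes were −0.73 ± 0.54 (Atp5b) and −0.84 ± 0.53 (Atp5a1) with all 6 libraries, and −0.66 ± 0.44 and −0.54 ± 0.38 without control 2. Atp5o, in the stalk, had −0.65 ± 0.52 and −0.56 ± 0.54.

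Which controls entered the fit decided the direction. Without controls 1 and 2, which leaves control 3 as the single control and assumes that it varies like the knockouts, the median over the 50 genes was 0.22 and 39 genes lay above 0. The medians of complexes I, III and IV were then 0.25, 0.13 and 0.28, while those of complexes II and V were −0.05 and −0.04. Without controls 2 and 3 the median was −1.04, and 10 genes had an unadjusted p under 0.05 in edgeR (6.5% of all genes tested were lower at that p). With control 2 kept and control 3 left out the median was −1.20, and 24 genes had an unadjusted p under 0.05 (7.16% of all genes tested were lower at that p). Leaving out any one library of the 6 otherwise kept the median of the 50 genes between −1.25 and −0.57.

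Knockout 3 and control 3 carry the highest of the numbers in the sample titles, whose meaning the labels do not give. Between these 2 libraries the median difference over the 50 genes was 0.80 in log2(CPM + 1), knockout higher, against −0.01 over all genes tested. Between the mean of knockouts 1 and 2 and control 1 it was −1.40, knockout lower, against 0.03 over all genes. The difference between knockout 3 and control 3 was 0.85 for complexes I and IV, 0.57 for complex III, 0.54 for Cycs, 0.38 for complex II and 0.26 for complex V. Ndufa2 and Ndufa12 stood at the upper end, 1.47 and 1.54 higher in knockout 3, and of the 50 genes only Uqcrc2 was lower there (−0.24). Each comparison has a single library on at least one side, so neither has a test. With the title number as a term, the median was −0.87 with all 6 libraries and −0.60 without control 2, and edgeR called no subunit gene.

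**Figure D4:**
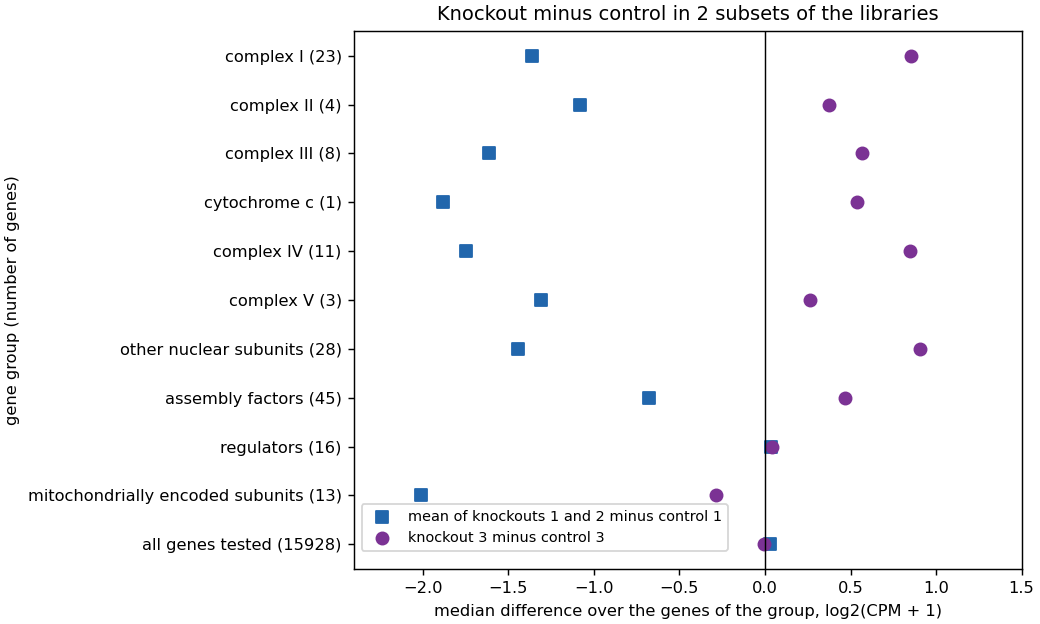
Median difference in log2(CPM + 1) over the genes of each group (y axis, with the number of genes), for knockout 3 minus control 3 (circles) and for the mean of knockouts 1 and 2 minus control 1 (squares). Each complex lies above 0 in the first and below 0 in the second, while the mitochondrially encoded subunits lie below 0 in both.

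Markers of other cell types differed between the same libraries. Of 15 macrophage genes, 15 had a log2 fold change above 0 with all 6 libraries and 14 without control 2. Their summed level was 1615 to 6540 CPM in the knockouts and 610 to 1340 CPM in the controls. It was highest in knockouts 1 and 2, which had the lowest subunit means with TMM. The sum includes Lyz2, whose promoter drives Cre in the knockouts. Lyz2 had 1945, 2334 and 376 CPM in the knockouts and 299, 123 and 369 in the controls. Control 3, with a subunit mean of 6.72, had 1077 CPM of macrophage genes, and knockout 3, with 7.48, had 1615 CPM. Scaled to total counts, the subunit mean of control 3 (6.888) was below that of knockout 1 (6.895). Of 8 fibroblast genes, 7 lay above 0, with sums of 1828 to 8674 CPM in the knockouts and 526 to 2014 CPM in the controls. Of 14 adipocyte genes, 7 lay below 0 with all 6 libraries and 12 without control 2. Their sums were 30521 to 76155 CPM in the knockouts and, in controls 1 and 3, 78859 and 55016 CPM. Of 15 hepatocyte genes, 15 lay below 0 in both fits, but controls 1 and 3 differed. Their mean log2(CPM + 1) was 1.53, 5.75 and 3.29 in the knockouts, 2.07 in control 1 and 8.37 in control 3. The mean of knockouts 1 and 2 was below control 1 for 2 of the 15, with a median difference of 2.34, knockout higher. Alb was above 0 counts in every library, from 4.02 CPM in knockout 1 to 3879 CPM in control 3 outside control 2. Of the epididymal genes, Crisp1 stood at 38.7 CPM in control 1 and at most 7.52 CPM elsewhere, and Lcn5, Lcn8 and Defb30 were under 1 CPM everywhere. In bulk tissue, fewer cells of a type and less RNA per cell cannot be told apart, and the part of these cells in the subunit levels was not tested.

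The chain's other nuclear subunits, 28 genes outside the 50, showed like values. None passed the edgeR test, 28 lay below 0 with all 6 libraries and 24 without control 2, and their medians were −0.72 and −0.47. Atp5l, a membrane subunit of complex V, had −0.72 ± 0.56 without control 2. Of 44 assembly factors tested, 40 and 31 lay below 0, with medians of −0.46 and −0.22, and none passed in edgeR. Foxred1, needed to build complex I, had −0.87 ± 0.34 without control 2, with 29.9, 28.2 and 36.2 CPM in the knockouts and 76.9, 46.1 and 38.1 in the controls. Every knockout was below every control for Foxred1, as for 4 of the 44 assembly factors and 5.61% of all genes tested with all 6 libraries. Of 16 transcriptional regulators of the chain, 10 and 6 lay below 0, with medians of −0.20 and 0.07. Among them Ppara, a nuclear receptor for fatty acid oxidation, was called lower in the knockouts by DESeq2 in both fits (adjusted p = 0.0050 and 0.0022) and not by edgeR (adjusted p = 0.56 and 0.54). It had 1.14, 1.12 and 1.13 CPM in the knockouts and 3.82, 55.1 and 5.94 in the controls, the highest of them the library with the liver profile.

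The subunits encoded by mitochondrial DNA stood apart from the nuclear subunits of the same complexes in their order of libraries. All 12 that were tested of 13 lay below 0 in both fits, with medians of −1.66 and −1.36, and none passed in edgeR. DESeq2 called 6 of them lower in the knockouts with all 6 libraries and 3 without control 2 (3.37% and 2.98% of all genes in either direction). Every knockout was below every control for 9 of the 12 with all 6 libraries and for 9 without control 2 (5.61% and 12.3% of all genes tested). The 12 genes lie on the same mitochondrial DNA and were read in the same libraries, so they are not separate results. The mitochondrial cytochrome b gene mt-Cytb (complex III) had 3309, 4151 and 6937 CPM in the knockouts and 18701, 23681 and 9234 in the controls, and mt-Nd5 (complex I) had 1193, 1968 and 1851 against 5813, 4425 and 4257. Control 3, which lay among the knockouts for nuclear subunits, lay above all 3 knockouts for both. DESeq2's adjusted p for mt-Nd5 was 0.0038 with all 6 libraries and 0.0021 without control 2. Over the list, 2 of 13 genes were higher in knockout 3 than in control 3, with a median difference of −0.29.

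Set against the nuclear subunits of the same complex, a ratio within a library that no scaling between libraries alters, the mitochondrially encoded subunits were lower in every knockout than in every control. For complex I the summed CPM of 7 mitochondrial genes was 5.75, 8.15 and 5.48 times that of the 23 nuclear genes in the knockouts and 10.5, 12.0 and 12.7 times in the controls. For complex III, with mt-Cytb alone, it was 3.44, 4.99 and 4.26 times in the knockouts and 7.45, 7.07 and 8.67 times in the controls. For complex IV it was 5.02, 6.28 and 3.44 times against 6.42, 7.28 and 9.17 times, with knockout 2 and control 1 next to each other. The same order held for complex V (0.0139 to 0.0156 against 0.0205 to 0.0762). There mt-Atp6 had a median FPKM of 50.5 against 4866 for mt-Nd1, and mt-Co2 and mt-Co3 of complex IV had 105 and 66.8 against 8351 for mt-Co1, so counts of these genes may be incomplete. Every knockout being below every control held for the CPM of 5.61% of all single genes tested with all 6 libraries. No such share was computed for ratios. The ratios of the complexes come from the same libraries and are not separate results. Mitochondrial chromosome reads took 2.64% to 3.89% of the counts in the knockouts and 5.45% to 9.08% in the controls.

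Within a complex the subunit genes differed widely in level per length. FPKM values, which are per exon length, can be compared between genes of a library, and the median over the 6 libraries was taken. Cox8a (581), Cox6a1 (534), Cox4i1 (328) and Cox6b1 (299), all of complex IV, and Atp5b (281) had the highest medians. Cox8a and Cox6a1 held the first and second rank of the 50 in each of the 6 libraries, in either order. Ndufs1, the largest core subunit of complex I, had the lowest median (12.2), followed by Ndufa12 (15.2) and Ndufb5 (15.8). For 47 of the 50 genes the FPKM divides by all annotated exons, 8086 bases for Ndufs1 and 4995 for Ndufb5 against 702 for Cox6a1, so long untranslated exons lower the value. The exceptions were Ndufv1, Ndufs8 and Cox8a, whose FPKM divides by fewer bases. For Cox8a these were 545 of 619, which raises its value. Its median above that of Cox6a1 depends on this length. The middle gene of complex I stood at 50.03 FPKM, of complex II at 77.8, of complex III at 97.6, of complex IV at 162 and of complex V at 239, and Cycs at 34.1. The highest gene of each complex was Ndufa2 (208), Sdhd (122), Uqcr10 (163), Cox8a and Atp5b.

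**Figure D5:**
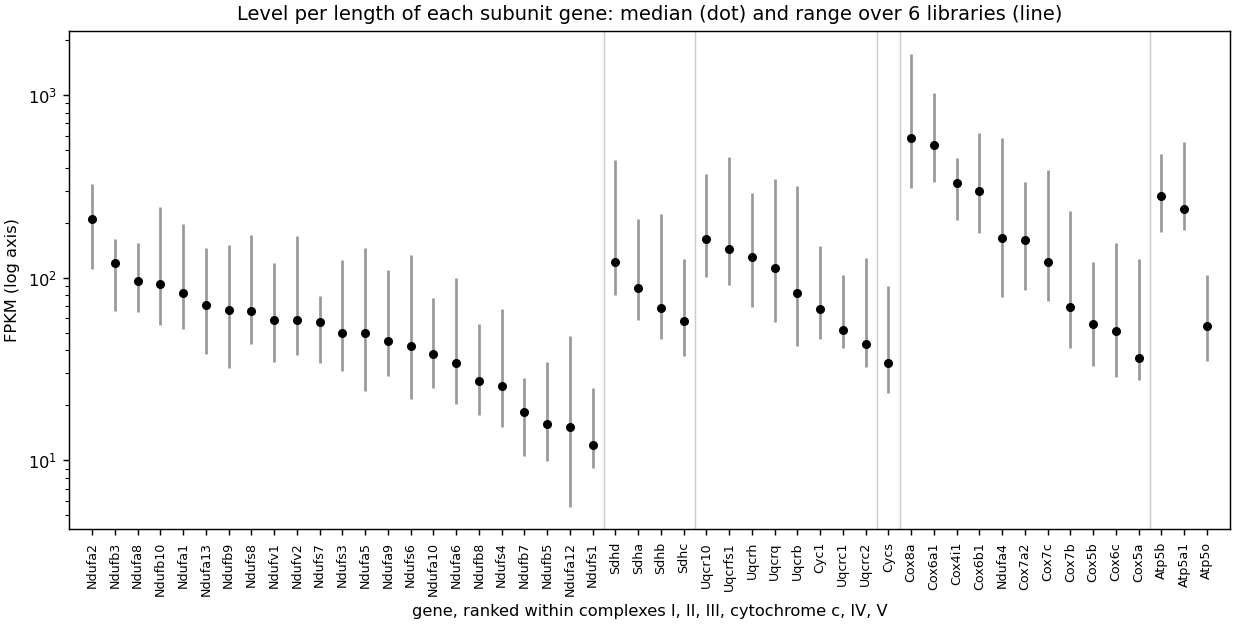
FPKM on a log axis of each of the 50 subunit genes (x axis, ranked within complexes), with the median over 6 libraries as a dot and the lowest to highest library as a line. Medians run from 12.2 for Ndufs1 to 581 for Cox8a, and the lines include control 2, whose FPKM scale was 1.90 times that of control 1 relative to total counts against 0.829 to 0.921 times in the other 4.

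Tissue isoforms that replace some of these subunits lay mostly on the other side of 0. Of 8 isoform genes, 6 were tested, 5 of these lay above 0 in both fits and none passed in edgeR or DESeq2; Cox8c and Cyct had 0 counts in every library. Ndufa4l2, the hypoxia-linked relative of Ndufa4, had 14.7, 13.6 and 21.4 CPM in the knockouts and 6.37, 2.15 and 10.6 in the controls, every knockout above every control (9.54% of all genes tested with all 6 libraries and 13.4% without control 2). Its log2 fold change was 1.37 ± 0.60 (edgeR adjusted p = 0.56) and 0.98 ± 0.35 (adjusted p = 0.54) without control 2. In FPKM it stood at 13.3%, 14.6% and 8.28% of Ndufa4 in the knockouts and at 1.40%, 0.315% and 7.03% in the controls. Cox8b, the muscle and brown fat form of Cox8a, stood at 4.91%, 3.45% and 5.81% of Cox8a in the knockouts and at 0.881%, 0% and 1.70% in the controls, and its own level was 6.14, 4.77 and 20.3 CPM against 6.14, 0 and 3.52. The share did not overlap between groups, whereas the CPM of Cox8b did. The shares of Cox7a1, the heart and muscle form beside Cox7a2 (3.80% to 5.70% against 0.606% to 3.71%), did not overlap either. Its nearest libraries, knockout 2 and control 3, rested on 54 and 60 counts, and its CPM overlapped (1.89 to 7.57 against 1.16 to 5.32). The shares of Cox6a2 beside Cox6a1, on at most 39 counts, did not overlap. Those of Cox4i2 beside Cox4i1 (1.34% to 2.12% against 0.210% to 2.16%) and of Cox6b2 beside Cox6b1 (0.253% to 0.660% against 0.133% to 0.506%) did. How often such shares fail to overlap over all genes was not computed.

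Several subunit genes share sequence with pseudogenes or relatives, among which reads could be split. Of the 50 genes, 19 had at least 1 stretch of 50 bases found in a transcript of another gene. In 7 such stretches made up over 20% of the transcript: Uqcrb (43.2%), Ndufs3 (35.8%), Cycs (28.2%), Cox7c (27.9%), Ndufa12 (26.2%), Cox5b (25.9%) and Ndufb9 (23.4%). The sources used here do not give how reads with several matches were counted, which leaves the counts of these 7 genes uncertain. Uqcrc2, Sdha and Atp5b are not among them.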

How the data were processed

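RNA from 3 knockout and 3 control libraries of epididymal fat was sequenced. The submitters' processing notes name build mm10 and the tools fastp, featureCounts 1.5.0-p3, StringTie 1.3.3b and HISAT2 2.0.5; the sources used here do not give strand and counting settings or the annotation release. The authors deposited whole-number counts per gene, which were tested, and FPKM values, whose gene lengths equalled the GENCODE vM21 exon union for 47 of 50 genes (within 0.1%). Library totals were 20108185 to 27225533 counts. Gene symbols and coordinates came from GENCODE vM21 (GRCm38) for 54409 identifiers, and promoters from RefSeq.

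The whole table was tested by robust quasi-likelihood fits in edgeR 4.0.16 under R 4.3.3, with filterByExpr by group, TMM factors (0.982 to 1.25, and 0.559 in control 2) and a threshold of 0.05 after Benjamini-Hochberg adjustment, with all 6 libraries and without control 2. CPM use these factors, and list means log2(CPM + 1). The fit was also run on counts simulated with known changes. These held no shifts of whole libraries, so no conclusion is drawn from that run. Chi-square per degree of freedom between replicates was 56.8 to 1112, with 942 and 1112 in the pairs with control 2. Such values show spread beyond counting error and cannot show whether libraries came from separate animals. Each library was treated as its own sample. The members and the 23 gene lists (259 of 260 genes found) were chosen with earlier results of these data known. Values per library are given for the 2 genes of smallest p per complex and fit, Cycs and the gene of highest FPKM per complex. Genes named from the other subunits, assembly factors, regulators and coupling genes were among those of smallest p in their list without control 2. Ndufa8, Ndufa12, Cox5a, Ndufs7, mt-Cytb, mt-Nd5 and the printed promoters were picked after their values were seen. Alternatives were DESeq2 1.42.0, limma 3.58.1 (voom, and log2(FPKM + 1) or log2(FPKM + 0.1)), other scalings and filters, the title number as a term, Ndufa4 counted with complex I, and leaving out each library.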

Additional observations from a re-analysis of the deposited data

How the results depend on the processing

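No subunit gene was called under any setting run, with all 6 libraries or without control 2, and DESeq2 alone called any gene (525 and 470); edgeR and limma called 0. With all 6 libraries the median log2 fold change stayed below 0 under every setting: −1.25 to −0.38 for the 50 genes, −1.18 to −0.33 for complex I, −1.28 to −0.40 for complex II, −1.44 to −0.54 for complex III, −1.38 to −0.38 for complex IV and −1.0 to −0.30 for complex V. The value nearest 0 for the 50 genes (−0.38, with 6 genes above 0) came from scaling to total counts, under which the median of all genes was 0.34, so that the subunit genes lay −0.73 from it against −0.86 with TMM. Without control 2, leaving out each remaining library gave medians of −1.04 to 0.22 for the 50 genes, −0.94 to 0.25 for complex I, −0.79 to −0.05 for complex II, −1.23 to 0.13 for complex III, −1.20 to 0.28 for complex IV and −1.04 to −0.04 for complex V; the values above 0 are those without control 1, and the other settings kept the medians below 0. Leaving out controls 2 and 3 together is the same fit as leaving control 3 out of the 5 libraries. Scaled to total counts, a setting for the order of libraries that was added after the data were seen, control 2 was above control 1 for 5 of the 50 genes against 37 with TMM. No paired analysis was possible because the labels give no replicate numbers. With 3 libraries or fewer a group and standard errors of 0.26 to 0.87 for single subunit genes, the lack of calls does not show that levels were alike.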

Other observations

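Proton leak and coupling, which set how much of the chain's gradient reaches complex V, were followed in 11 genes, of which 5 lay below 0 with all 6 libraries and 6 without control 2. Ucp1, the uncoupling protein of brown and beige fat, had 85, 61 and 264 counts in the knockouts and 0, 0 and 10 in the controls. Every knockout was thus above every control (9.54% of all genes tested with all 6 libraries). Ucp1 was called higher in the knockouts by DESeq2 in both fits (adjusted p = 0.0133 and 0.0083 without control 2) and not by edgeR (adjusted p = 0.56 and 0.54). Of 8 brown adipocyte genes, among them Ucp1, Cox8b and Cox7a1, 6 lay above 0 and 2 below 0 in each fit. The lowest stood at −6.08 with all 6 libraries and −2.64 without control 2. Ucp2, a relative of Ucp1 that is common in macrophages, had 792, 926 and 364 CPM in the knockouts and 312, 29.7 and 255 in the controls, with the highest levels in knockouts 1 and 2, where the macrophage genes were highest too. Opa1, which shapes the inner membrane, had 64.0, 57.9 and 58.9 CPM in the knockouts and 81.6, 125 and 88.8 in the controls. Every knockout of Opa1 was below every control (5.61% of all genes tested with all 6 libraries), and it passed the test in neither tool.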
